A study of Mus musculus with 32 samples.

Results

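Primary tumours of the Ovgp1-BPR mouse model were compared with normal mouse oviduct, the tissue in which the model starts its tumours. The members were chosen by the sample titles: 3 libraries titled Ovgp1-BPR GEMM (genetically engineered mouse model) and 3 libraries titled normal oviduct, 6 of the 32 RNA-seq libraries of the series. The whole series set mouse models of high-grade serous ovarian carcinoma beside each other by their site of origin, with primary tumours, allografts and normal tissues. Levels are given by single tumour for the genes the results turn on, because the 3 tumours differed in epithelial genes.

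The Ovgp1-BPR mice were female C57Bl/6 animals whose sample labels give Brca1 as fl/fl, Trp53 as KozR172H ki/+ (a knock-in on 1 copy), and the transgenes K18GT121 (Tg/+) and Ovgp1-CreERT2 (Tg/+). The Ovgp1 promoter directs a tamoxifen-activated Cre to the secretory cells of the oviductal epithelium, Cre removes the floxed part of Brca1, and K18GT121 is a transgene whose product inhibits Rb. The labels of the series conflict on Trp53: the sample labels name the knock-in allele, whereas the series text speaks of a Trp53 point mutation but lists Trp53 fl/fl in the genotype. Tumours were induced with tamoxifen and taken months later at endpoint. The normal oviducts came from wild-type female C57Bl/6 mice and were labelled as oviduct without separation of epithelium from muscle and serosa. Ages were not given. The titles number the 3 tumours and the 3 oviducts differently within each group, but the labels do not say that these are separate animals. The p-values thus rest on spread between libraries within groups, estimated for each gene over all 10 groups (32 libraries). Tumours and oviducts share this estimate, although the tumours differed more among themselves. Each oviduct shares a title number with 1 of the 3 normal ovaries of the series, which enter the same fit as independent libraries, and a fit of the 6 compared libraries leaves the ovaries out. Levels in 3 Ovgp1-BPR allografts of the same genotype and strain, whose source tumours are not labelled, are given beside the primary tumours without a test. For the difference between models, 2 Ad-BPR GEMM tumours (adeno-Cre injected into the oviduct of mice with Brca1 fl/fl and Trp53 fl/fl that carry K18GT121 as Tg/+) and 4 Pax8-BPR GEMM tumours (the same alleles with Pax8-CreERT2 Tg/+ and tamoxifen) were used, all of them female C57Bl/6.

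High-grade serous carcinoma is the most common form of ovarian cancer, and many human cases are thought to begin in secretory cells of the fallopian tube, the human counterpart of the mouse oviduct. The oviductal lining holds secretory cells, which make products such as oviductal glycoprotein (Ovgp1), and ciliated cells, which carry motile cilia and depend on the transcription factor Foxj1. Rb and its relatives hold back E2F transcription factors, p53 restrains damaged cells and Brca1 acts in repair of DNA breaks by homologous recombination, so the 3 engineered changes act on the cell cycle and on genome maintenance.

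The 3 tumour libraries held 18173940, 17756773 and 17509293 gene-assigned reads and the 3 oviduct libraries 16256723, 18918292 and 20514782, within the series range of 13987119 to 20514782. Mitochondrial transcripts took 1.46 to 1.58% of the tumour reads and 2.93 to 3.49% of the oviduct reads, and the part of this difference in the results was not tested. No pair of libraries agreed within sampling noise, so each was counted as 1 sample. Among genes at 10 CPM (counts scaled to the library's TMM-adjusted total) or more in either library of a pair, 721 of 11428 lay more than 4-fold apart between tumours 1 and 2, 974 of 11398 between tumours 1 and 3 and 328 of 10967 between tumours 2 and 3. The same counts were 108 of 11613, 28 of 11553 and 84 of 11571 for oviducts 1 and 2, 1 and 3, and 2 and 3. Tumours thus differed among themselves more than oviducts did, and tumour 1 stood farthest from the other tumours. Oviducts 1 and 3 carried transcripts of oocytes and of steroid-making ovarian cells that oviduct 2 held at low levels, as described with the ovarian gene lists.

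Of 20887 genes tested with edgeR's quasi-likelihood test, 6811 (32.6%) passed an adjusted p of 0.05, where p-values were adjusted by the Benjamini-Hochberg method over all tested genes. In the tumours 3200 genes (15.3%) were higher and 3611 (17.3%) lower than in oviduct, 2371 and 3029 of them by more than 2-fold. The median log2 fold change of all tested genes was -0.05, where a log2 fold change of 1 is a doubling in tumours over oviducts. The 3 tumours and the 3 oviducts did not overlap for 11321 genes (54.2%), so that lack of overlap alone was common. Counts of list members outside the oviduct range, given below by single tumour, have no share over all genes beside them and are description. Counts of called list members are to be read beside the shares of 15.3% higher and 17.3% lower. With oviduct 2 as the only oviduct library the count was 2271, with 857 genes (3.88%) higher and 1414 (6.40%) lower in tumours. Because these are bulk libraries, fewer cells of a type and less RNA per cell cannot be told apart in any of these values. Calls given below as lost without a library refer to fits that left out 1 library. The closing section, or the paragraph of the gene, names those lost with another method, another filter or only the compared libraries.

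The engineered, Rb-pathway and lineage genes come first. Brca1 (chr11:101488764-101551955, minus strand, GRCm38), which acts in homologous recombination, stood at 50.1, 31.7 and 37.5 CPM in the tumours, against 4.92, 2.03 and 5.05 CPM in the oviducts (log2 fold change 3.31 ± 0.44, adjusted p = 4.84e-06 by edgeR). Its level was higher in all 3 tumours than in any oviduct. The Cre-mediated deletion removes some exons only, and a gene total cannot separate them, so this level checks nothing about the deletion. Trp53 (chr11:69580359-69591873, plus strand), the gene of p53, was measured at 157, 126 and 103 CPM in the tumours and 94.6, 85.1 and 83.4 CPM in the oviducts (log2 fold change 0.55 ± 0.23, adjusted p = 0.0718). The groups did not overlap, but the difference missed the threshold. It passed with limma on log2(TPM + 1) (adjusted p = 0.00418) and in the fit of the 6 compared libraries (0.0432).

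Cdkn2a (chr4:89274471-89294653, minus strand), which encodes the Rb-pathway inhibitor Ink4a and the p53-pathway factor Arf, was nearly absent from oviduct. It reached 215, 161 and 212 CPM in the tumours, against 0.42, 0.936 and 0.433 CPM in the oviducts (log2 fold change 8.34 ± 0.46, adjusted p = 2.11e-12). Tumour 2 was the lowest of the tumours and still far above every oviduct. Rb1 (chr14:73183673-73325822, minus strand), the retinoblastoma gene itself, stood at 37.2, 36.7 and 64.6 CPM in the tumours, against 23.4, 25.1 and 22.9 CPM in the oviducts (log2 fold change 0.96 ± 0.31, adjusted p = 0.0193). Tumour 3 was the highest, and the call for Rb1 was lost without tumour 3 or oviduct 3 (adjusted p = 0.0595 to 0.155).

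Wt1 (chr2:105126529-105173616, plus strand), a transcription factor of mesothelium and of serous carcinoma, was even among the tumours at 691, 682 and 621 CPM, against 138, 178 and 178 CPM in the oviducts (log2 fold change 2.01 ± 0.53, adjusted p = 0.00593). Pax8 (chr2:24420560-24475599, minus strand), a Müllerian lineage factor of secretory cells, stood at 83.7, 207 and 179 CPM in the tumours and 82.1, 115 and 91.5 CPM in the oviducts (log2 fold change 0.70 ± 0.94, adjusted p = 0.597). Tumour 1 lay inside the oviduct range of Pax8 and tumours 2 and 3 above it. Krt18 (chr15:102028180-102032027, plus strand), the keratin whose promoter drives the K18GT121 transgene, was highest in tumour 1, at 829, 353 and 274 CPM in the tumours and 278, 293 and 382 CPM in the oviducts (log2 fold change 0.61 ± 0.50, adjusted p = 0.359). Tumour 1 alone carried the positive value: without it the log2 fold change of Krt18 was -0.017 (adjusted p = 0.992).

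Ovgp1 (chr3:105973711-105987423, plus strand), whose promoter drives Cre in this model, is an abundant product of the oviduct. The tumours held 799, 26.3 and 27.9 CPM, against 3978, 6218 and 10296 CPM in the oviducts (log2 fold change -4.59 ± 1.03, adjusted p = 0.00163). Tumour 1 held a much higher level than tumours 2 and 3, and all 3 lay below every oviduct. Without tumour 1 the difference was larger (log2 fold change -7.98 ± 1.03, adjusted p = 4.52e-06), and in a fit of the 6 compared libraries alone the call was missed (adjusted p = 0.0531). Of the 8 engineered, Rb-pathway and lineage genes, 4 were called higher and 1 lower.

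**Figure D1:**
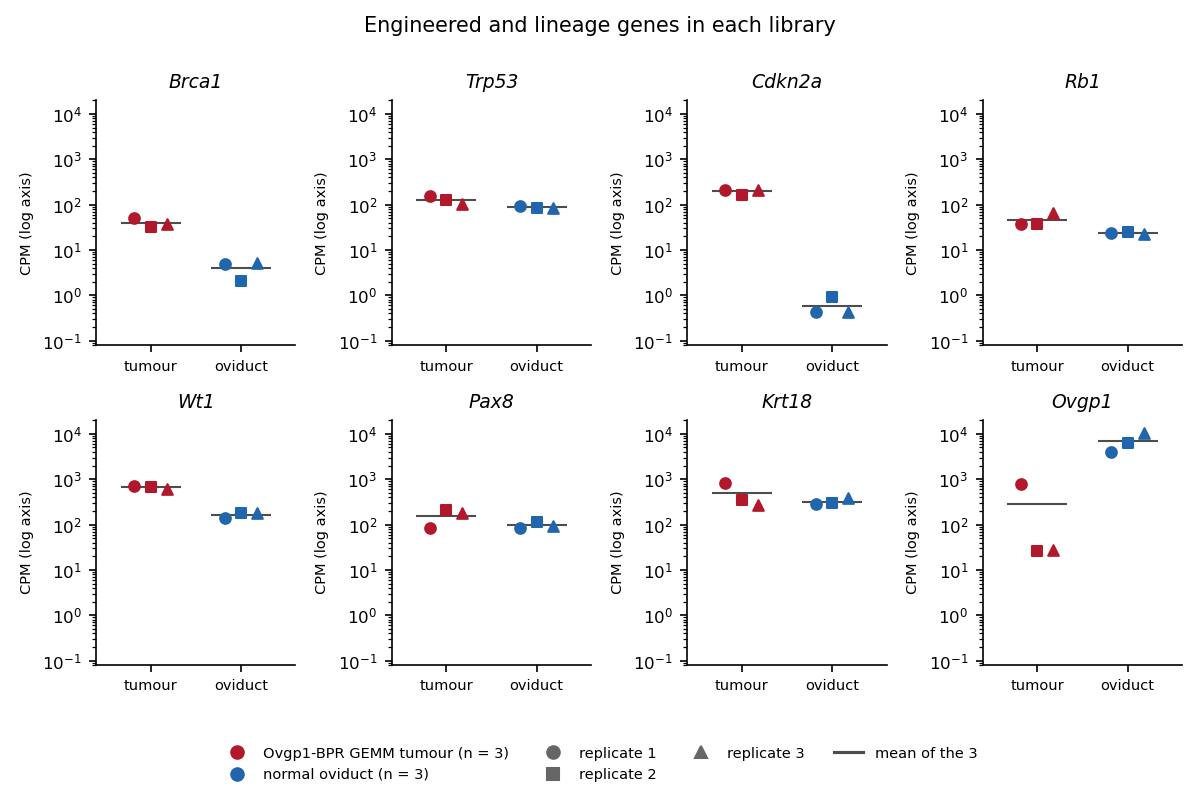
Levels of 8 engineered, Rb-pathway and lineage genes in CPM on a log axis, with the 3 Ovgp1-BPR tumours left of the 3 normal oviducts for each gene. Markers are single libraries by replicate number and lines are means of 3. Cdkn2a lies at 161 CPM or more in every tumour and under 1 CPM in every oviduct, and Ovgp1 is lower in every tumour, with tumour 1 highest among the tumours.

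Genes of DNA replication and cell division rose together. All 32 tested members of the list of E2F targets and DNA replication were called higher in the tumours (median log2 fold change 2.82), as were all 30 of the mitosis and spindle list (median 3.78), beside 15.3% called higher among all genes. Summed over the replication list, the tumours held 3320, 3417 and 4274 CPM and the oviducts 549.5, 362 and 482 CPM. Summed over the mitosis list, the tumours held 2744, 3367 and 4963 CPM and the oviducts 347, 111 and 289 CPM. Tumour 3 was the highest of the tumours in both sums and oviduct 2 the lowest of the oviducts. With oviduct 2 alone as the normal tissue, 31 of 32 and 30 of 30 were still called.

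E2F8 and E2F7 are the atypical repressors of the E2F family and are themselves E2F targets. E2f8 stood at 46.5, 58.9 and 92.4 CPM in the tumours, against 3.6, 1.61 and 1.97 CPM in the oviducts (log2 fold change 4.78 ± 0.38, adjusted p = 2.33e-09). E2f7 stood at 46, 55.6 and 64.1 CPM in the tumours, against 2.7, 2.03 and 2.74 CPM in the oviducts (log2 fold change 4.47 ± 0.32, adjusted p = 4.62e-10). Both were lowest in tumour 1 and highest in tumour 3. Ccne2, the cyclin E that starts S phase with Cdk2, had 20.3, 28.3 and 48.3 CPM in the tumours and 2.1, 0.936 and 1.54 CPM in the oviducts (log2 fold change 4.40 ± 0.47, adjusted p = 1.79e-07). Mcm6, a subunit of the replicative helicase, had 355, 288 and 393 CPM in the tumours and 25.4, 8.11 and 19.4 CPM in the oviducts (log2 fold change 4.29 ± 0.37, adjusted p = 6.67e-09), with tumour 2 the lowest tumour. The smallest fold change of the replication list belonged to E2f2 (log2 fold change 1.82 ± 0.39, adjusted p = 0.00125).

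Mki67, the proliferation antigen Ki-67, showed the largest change of the mitosis list. It was at 461, 684 and 1060.4 CPM in the tumours, against 34.8, 5.04 and 24.5 CPM in the oviducts (log2 fold change 5.10 ± 0.52, adjusted p = 1.08e-07). Kif11, the motor that separates spindle poles, had 110.3, 142 and 209 CPM in the tumours and 6.54, 3.43 and 6.49 CPM in the oviducts (log2 fold change 4.81 ± 0.48, adjusted p = 7.44e-08). Prc1, which bundles microtubules of the central spindle, had 193, 239.9 and 344 CPM in the tumours and 15.5, 4.99 and 14 CPM in the oviducts (log2 fold change 4.49 ± 0.39, adjusted p = 8.23e-09). For all 3 genes the tumours ran in the same order, tumour 1 lowest and tumour 3 highest. Cenpf, a kinetochore protein, followed the same order with 104, 139.9 and 249 CPM in the tumours and 11.5, 3.38 and 8.8 CPM in the oviducts (log2 fold change 4.38 ± 0.49, adjusted p = 4.47e-07). Mad2l1, the spindle checkpoint gene, had the smallest change of this list (log2 fold change 1.74 ± 0.29, adjusted p = 0.000109).

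As a description of these lists, the 250 bases before each gene's start were read from RefSeq (GRCm38.p6) and searched on both strands. An E2F word (TTTCCCGC, TTTCGCGC, TTTGCCGC or TTTGGCGC) was present for 9 of the 26 matched members of the replication list (34.6%) and for 1 of 24 of the mitosis list (4.17%), against 583 of 27025 genes of the promoter table (2.16%) and 466 of the 13916 of them that were tested here (3.35%). The cell cycle homology region word TTTGAA was present for 9 of 24 members of the mitosis list (37.5%) and 4 of 26 of the replication list (15.4%), against 18.3% of all genes and 13.6% of those tested. CCAAT was present for 18 of 24 (75%) and 18 of 26 (69.2%), against 37.5% of all genes and 39.5% of those tested. A short word meets many promoters by base composition, and a match is not a bound site. The replication list was drawn up to hold E2F targets, so its share of E2F words is no result of these data. Every tested member of both lists was called higher, so the search cannot relate these words to the change. The windows below belong to members that hold these words and are printed 5′ to 3′ on the strand of the gene, with every match of these words on either strand in capitals (overlapping matches run together). Those of Mcm6 (chr1:128359706-128359955, minus strand) and E2f7 (chr10:110745189-110745438, plus strand) hold E2F words, and those of Mki67 (chr7:135716380-135716629, minus strand) and Cdk1, the kinase that drives entry into mitosis (chr10:69352913-69353162, minus strand), hold TTTGAA. The Cdk1 window also holds an E2F word, and all 4 windows hold CCAAT.
Mcm6: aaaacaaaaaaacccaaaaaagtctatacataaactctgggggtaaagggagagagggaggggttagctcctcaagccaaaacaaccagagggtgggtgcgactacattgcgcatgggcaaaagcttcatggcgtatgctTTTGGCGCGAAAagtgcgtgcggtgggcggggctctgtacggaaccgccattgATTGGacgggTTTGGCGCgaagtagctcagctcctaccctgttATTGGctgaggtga
E2f7: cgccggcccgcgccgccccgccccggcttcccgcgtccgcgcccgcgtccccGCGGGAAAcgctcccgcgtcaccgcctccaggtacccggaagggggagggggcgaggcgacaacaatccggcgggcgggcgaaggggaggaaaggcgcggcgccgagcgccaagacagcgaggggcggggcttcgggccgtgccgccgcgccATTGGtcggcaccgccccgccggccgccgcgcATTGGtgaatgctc
Mki67: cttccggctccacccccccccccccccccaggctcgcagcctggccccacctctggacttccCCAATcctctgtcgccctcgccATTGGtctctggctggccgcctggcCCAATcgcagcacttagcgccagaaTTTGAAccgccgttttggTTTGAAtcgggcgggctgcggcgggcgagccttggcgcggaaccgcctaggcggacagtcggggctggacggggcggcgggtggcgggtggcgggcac
Cdk1: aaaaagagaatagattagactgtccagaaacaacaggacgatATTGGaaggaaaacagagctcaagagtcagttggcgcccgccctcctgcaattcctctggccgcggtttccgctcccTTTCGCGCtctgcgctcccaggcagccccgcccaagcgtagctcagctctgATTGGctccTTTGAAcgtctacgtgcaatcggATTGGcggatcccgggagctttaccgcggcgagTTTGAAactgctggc

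The Rb family and its cyclin kinase partners did not move as 1 block. Of 16 tested members, 8 were called higher and 2 lower (median log2 fold change 0.80), beside 15.3% and 17.3% of all genes. Beside Cdkn2a, the kinase inhibitors Cdkn2c, Cdkn2d and Cdkn1b were higher. Cdkn2c (Ink4c) had 171, 248 and 378 CPM in the tumours, against 18.7, 17.5 and 18.5 CPM in the oviducts (log2 fold change 3.87 ± 0.46, adjusted p = 9.94e-07). Cdkn2d (Ink4d) had 34, 44.9 and 69.5 CPM in the tumours and 10.9, 10.8 and 10.1 CPM in the oviducts (log2 fold change 2.22 ± 0.32, adjusted p = 1.17e-05). Cdkn1b (Kip1) had 237, 285 and 323 CPM in the tumours and 63.1, 67.4 and 75.6 CPM in the oviducts (log2 fold change 2.03 ± 0.31, adjusted p = 2.42e-05). None of these inhibitors overlapped between the groups, which was also true of 54.2% of all genes.

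The lower calls were both D-type cyclins, which activate Cdk4 and Cdk6 against Rb. Ccnd2 fell to 19.4, 10.6 and 8.78 CPM in the tumours, against 133, 147 and 144 CPM in the oviducts (log2 fold change -3.45 ± 1.09, adjusted p = 0.0179), a call lost without tumour 2 or tumour 3 (adjusted p = 0.0694 to 0.0735). Ccnd3 fell to 62, 74.5 and 67.3 CPM in the tumours, against 148, 151 and 128 CPM in the oviducts (log2 fold change -1.07 ± 0.39, adjusted p = 0.0367), a call lost without tumour 1, tumour 2, tumour 3, oviduct 1, oviduct 2 or oviduct 3 (adjusted p = 0.0553 to 0.101). The other D-type cyclin, Ccnd1, was at 49.2, 92.7 and 38.1 CPM in the tumours and 105, 156 and 129 CPM in the oviducts and was not called (log2 fold change -1.12 ± 0.90, adjusted p = 0.355). All 3 tumours lay below all 3 oviducts for each of these cyclins, where the groups did not overlap for 54.2% of all genes.

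Genes of homologous recombination and the Fanconi pathway, in which Brca1 acts, were higher for 19 of 24 tested members and lower for none (median log2 fold change 2.61). Among all genes 15.3% were called higher. With RLE factors, a minimum count of 30, DESeq2 or without tumour 1, 1 member was called lower. With oviduct 2 as the only oviduct library the median of the list was 2.91. Exo1, the nuclease that resects broken ends, had 29.3, 44.9 and 48.8 CPM in the tumours, against 4.44, 0.728 and 3.42 CPM in the oviducts (log2 fold change 3.84 ± 0.50, adjusted p = 3.21e-06). Rad54l, a DNA translocase of recombination, had 47.3, 46 and 74.3 CPM in the tumours and 5.4, 2.86 and 4.23 CPM in the oviducts (log2 fold change 3.74 ± 0.36, adjusted p = 4.58e-08). Neither gene overlapped between the groups, like 54.2% of all genes. The lowest value of the list was that of Rad51d, at 23.7, 7.8 and 6.85 CPM in the tumours and 21.8, 27.2 and 25.8 CPM in the oviducts (log2 fold change -0.96 ± 0.39, adjusted p = 0.0582). An E2F word lay before 3 of the 18 matched members (16.7%).

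Of 24 tested members of the list of established p53 targets, 3 were higher and 3 lower (median log2 fold change 0.14), shares near those of all genes (15.3% and 17.3%). Psrc1, a spindle-associated gene, had 30.2, 22.8 and 45.4 CPM in the tumours, against 5.82, 1.82 and 4.19 CPM in the oviducts (log2 fold change 3.06 ± 0.41, adjusted p = 6.37e-06). Apaf1, the core of the apoptosome, had 60.1, 44.4 and 50.2 CPM in the tumours and 15.5, 11.4 and 18.2 CPM in the oviducts (log2 fold change 1.78 ± 0.24, adjusted p = 5.33e-06). Cdkn1a, a cell cycle inhibitor and classical p53 target, was not called (log2 fold change 0.14 ± 0.69, adjusted p = 0.902), and neither was Mdm2, the ligase that degrades p53 (log2 fold change -0.12 ± 0.25, adjusted p = 0.738). Mdm2 was even across all 6 libraries, at 53.4, 59.3 and 58.7 CPM in the tumours and 63, 62.5 and 61 CPM in the oviducts. Sesn1, a stress-response gene, was higher (log2 fold change 0.82 ± 0.30, adjusted p = 0.0363), a call lost without tumour 3, oviduct 1 or oviduct 3 (adjusted p = 0.0924 to 0.174). Aen, a nuclease of apoptosis, was lower (log2 fold change -1.35 ± 0.42, adjusted p = 0.016), a call lost without tumour 3 or oviduct 2 (adjusted p = 0.0516 to 0.0627), and so was Ccng1, cyclin G1 (log2 fold change -1.32 ± 0.36, adjusted p = 0.00731), lost without tumour 2 (adjusted p = 0.059). Zmat3, an RNA-binding p53 target, was the remaining lower member (log2 fold change -1.16 ± 0.22, adjusted p = 0.000303).

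**Figure D2:**
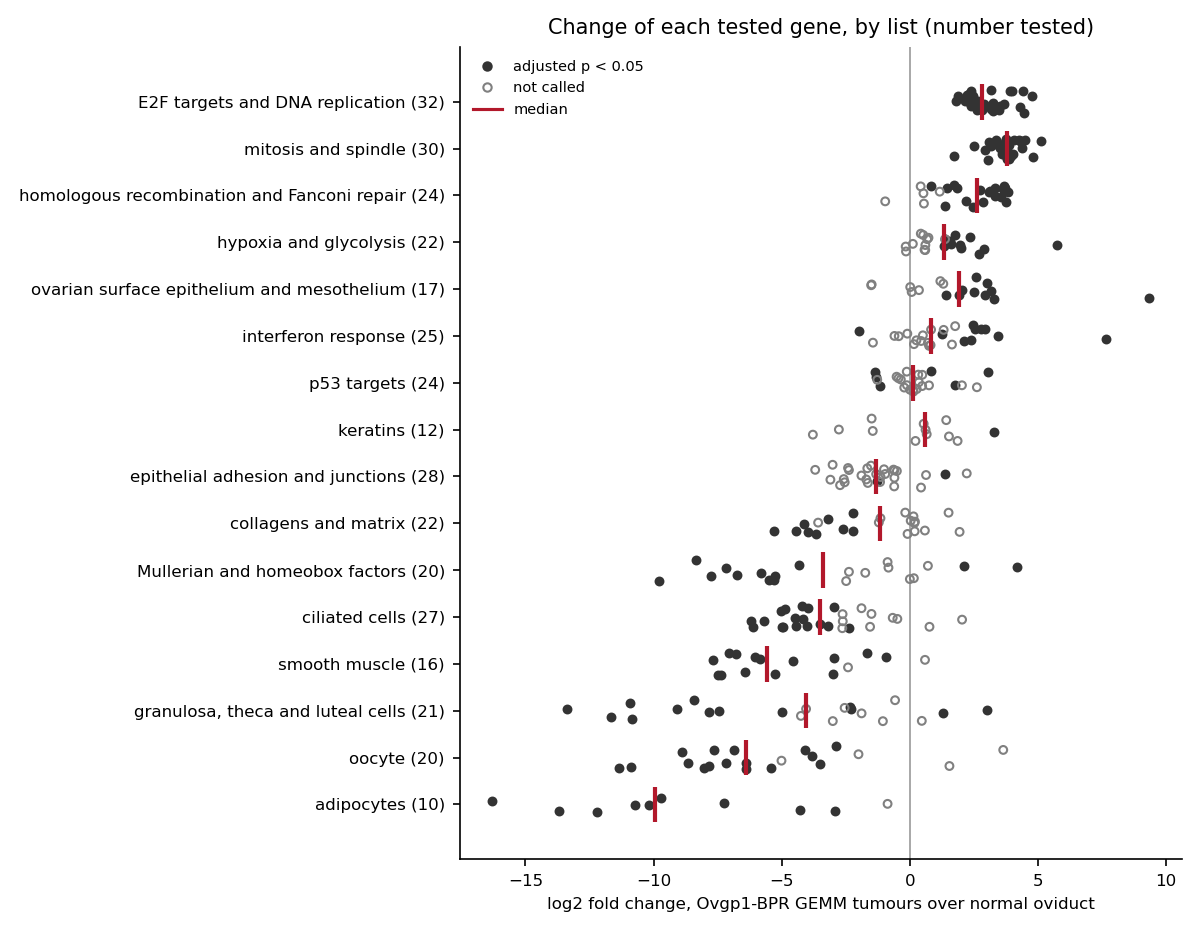
Log2 fold change of each tested gene, tumours over oviducts, for 16 gene lists, with the number of tested genes in brackets. Filled points passed an adjusted p of 0.05 and red lines are medians. All points of the replication and mitosis lists lie above 0, while 14 of 16 smooth muscle points are filled and below 0 and the epithelial points lie on both sides of 0.

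Epithelial adhesion and junction genes split the tumours. The list sum was 2826, 1603 and 784 CPM in tumours 1 to 3, against 2713, 2758 and 2975 CPM in the oviducts. Tumour 1 was level with oviduct, tumour 2 lower and tumour 3 lowest. Of 28 tested members, tumour 1 lay above the oviduct range for 7 and below it for 20, but more than 4-fold below the lowest oviduct for only 2. Those counts were 23 and 10 in tumour 2 and 26 and 20 in tumour 3. As a group of 3 with this spread, the tumours gave 1 call higher and 1 lower (median log2 fold change -1.31). The lower calls numbered 7 by DESeq2, with 1 higher, 7 by limma on log2(TPM + 1), with 2 higher, and 4 in the fit of the 6 compared libraries, with none higher. Without tumour 1, 8 members were called lower and none higher (median -2.20), beside 18.0% of all genes lower in that fit.

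Single genes show the same order. Epcam, an epithelial cell adhesion molecule, stood at 199.6, 45.7 and 3.63 CPM in the tumours, against 185, 174 and 190.1 CPM in the oviducts (log2 fold change -1.14 ± 1.16, adjusted p = 0.472). Cdh1, E-cadherin of adherens junctions, stood at 191, 28.6 and 3.97 CPM in the tumours, against 192, 228 and 286 CPM in the oviducts (log2 fold change -1.66 ± 1.23, adjusted p = 0.311). Cldn3, a claudin of tight junctions, stood at 137, 40.6 and 1.36 CPM in the tumours, against 107, 120.4 and 133 CPM in the oviducts (log2 fold change -1.01 ± 1.03, adjusted p = 0.478). For Epcam and Cldn3 tumour 1 was above the oviduct range, for Cdh1 just below its lowest value, and tumour 3 was under 4 CPM for all 3 genes. Cldn7, another claudin, was below oviduct in every tumour, at 17, 6.77 and 0.113 CPM in the tumours and 80.6, 60.3 and 64.2 CPM in the oviducts (log2 fold change -3.10 ± 1.29, adjusted p = 0.0668). Esrp1, the splicing regulator of epithelial isoforms, had 27.1, 1.2 and 0.34 CPM in the tumours and 57.9, 64.1 and 67.5 CPM in the oviducts (log2 fold change -2.72 ± 1.34, adjusted p = 0.119). Leaving out tumour 1 brought Esrp1 past the threshold (log2 fold change -6.34 ± 1.72, adjusted p = 0.00724).

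The 2 called members of this list were not the typical ones. Cgn, cingulin of tight junctions, was higher, at 396, 103 and 167 CPM in the tumours and 77.8, 98 and 84.4 CPM in the oviducts (log2 fold change 1.36 ± 0.40, adjusted p = 0.0115), and the call was lost without tumour 1 (adjusted p = 0.186). Prss8, the membrane protease prostasin, was lower, at 22, 29.2 and 12.1 CPM in the tumours and 46.1, 54.4 and 55.6 CPM in the oviducts (log2 fold change -1.3 ± 0.46, adjusted p = 0.0334). The call of Prss8 was lost without tumour 1, tumour 3, oviduct 1, oviduct 2 or oviduct 3 (adjusted p = 0.0559 to 0.151).

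The allografts also divided. Epcam was at 2.8, 0.466 and 467 CPM and Cdh1 at 11.1, 2.59 and 780.4 CPM in allografts 1 to 3. The list sum was 692, 462 and 5184 CPM. Allograft 3 thus exceeded every primary tumour and allografts 1 and 2 lay below tumour 3 in the sum. Which tumour each allograft came from is not given, so these levels were not tested.

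**Figure D3:**
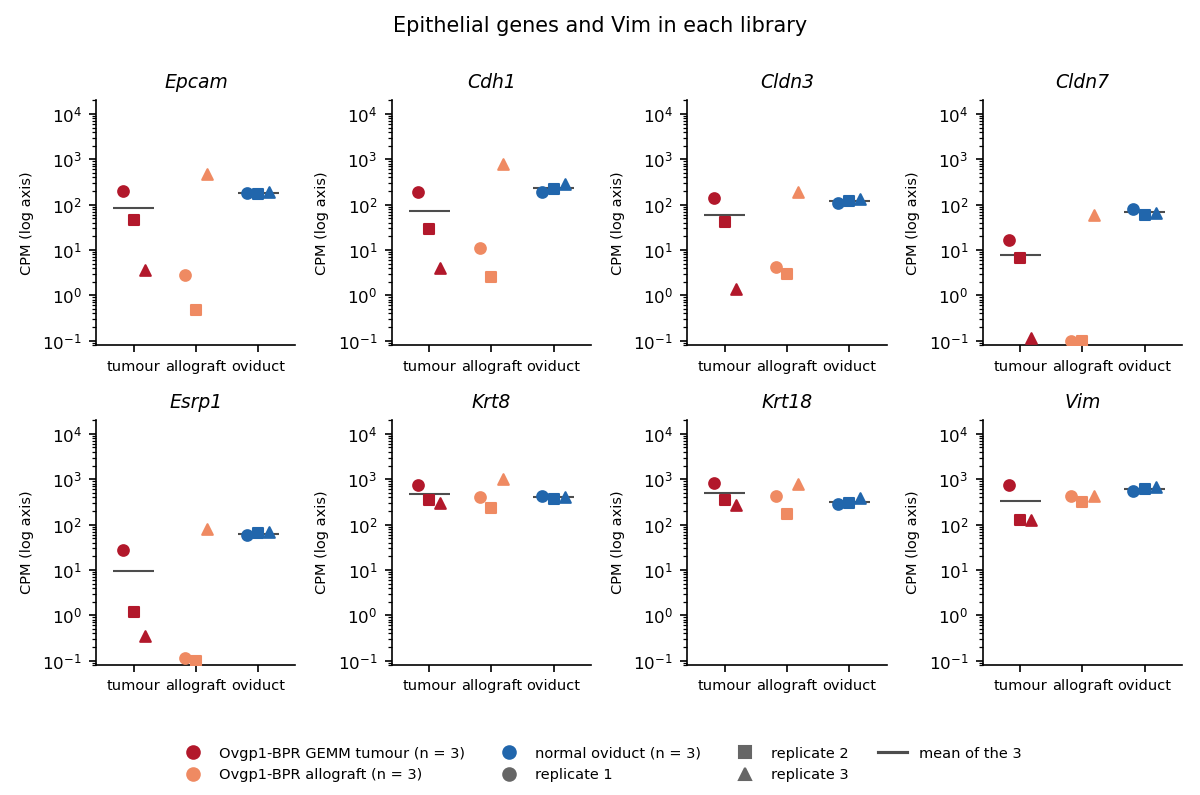
Levels in CPM on a log axis of 7 epithelial genes and Vim in the 3 primary tumours, the 3 allografts and the 3 normal oviducts. Levels under 0.1 are drawn at 0.1, and lines are means for tumours and oviducts. Epcam, Cdh1, Cldn3, Cldn7 and Esrp1 are highest in tumour 1 and lowest in tumour 3, while the oviducts lie close together, and allograft 3 stands above allografts 1 and 2 for those genes.

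Keratins followed tumour 1. Their sum was 2859, 1042 and 794 CPM in the tumours and 1372, 1241 and 1513 CPM in the oviducts, so that tumour 1 lay above and tumours 2 and 3 below every oviduct. Of 12 tested keratins, 8 were above the oviduct range in tumour 1, 3 in tumour 2 and 1 in tumour 3. Krt7, a keratin of simple epithelia, had 905, 183 and 85.3 CPM in the tumours and 207, 99.3 and 133 CPM in the oviducts (log2 fold change 1.42 ± 0.77, adjusted p = 0.158). Krt8, the partner of Krt18, had 749, 346 and 295 CPM in the tumours and 419.9, 361 and 414 CPM in the oviducts (log2 fold change 0.22 ± 0.53, adjusted p = 0.782). The list's median log2 fold change was 0.58, or -0.91 without tumour 1. The only call was Krt14, a keratin of basal cells, at 34.7, 6.06 and 7.14 CPM in the tumours and 0.721, 1.14 and 2.98 CPM in the oviducts (log2 fold change 3.29 ± 1.21, adjusted p = 0.0394), and it was lost without tumour 1, oviduct 1, oviduct 2 or oviduct 3 (adjusted p = 0.0517 to 0.211).

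Genes of the mesenchymal transition were mostly uncalled. Of 15 tested members none was called higher and 2 lower (median log2 fold change -0.85), and without tumour 1 these counts were 1 and 4. Vim, vimentin of mesenchymal cells, stood at 762, 128 and 125 CPM in the tumours, against 556, 601 and 672 CPM in the oviducts (log2 fold change -0.85 ± 0.58, adjusted p = 0.273). Tumours 2 and 3 were the low ones, and without tumour 1 Vim was called lower (log2 fold change -2.27 ± 0.57, adjusted p = 0.0044). Twist2, a regulator of dermal and stromal mesenchyme, fell to 0.212, 0.109 and 0.0566 CPM in the tumours, against 14.3, 19.5 and 12.8 CPM in the oviducts (log2 fold change -6.86 ± 1.31, adjusted p = 0.0004). Prrx2, a homeobox gene of mesenchyme, was lower as well (log2 fold change -2.04 ± 0.72, adjusted p = 0.033), a call lost without tumour 1, tumour 2, oviduct 1 or oviduct 2 (adjusted p = 0.0662 to 0.114). Zeb1, a repressor of Cdh1, stood at 59.9, 92.2 and 65.5 CPM in the tumours and 97.6, 95.2 and 85.3 CPM in the oviducts (log2 fold change -0.35 ± 0.39, adjusted p = 0.511). Snai2, a related repressor, stood at 6.2, 6.82 and 10.2 CPM in the tumours and 20.3, 15.6 and 13.1 CPM in the oviducts (log2 fold change -1.08 ± 0.50, adjusted p = 0.0989). Fn1, the matrix protein fibronectin, reached 1764, 5387 and 4482 CPM in the tumours, against 1011, 1115 and 906 CPM in the oviducts (log2 fold change 1.94 ± 0.83, adjusted p = 0.0743). Fn1 is also on the collagen and matrix list.

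Genes of the secretory cell list, which holds transcription factors as well as products, differed gene by gene. Of 14 tested members of 15 listed, 2 were higher and 4 lower (median log2 fold change -0.54), beside 15.3% and 17.3% of all genes. The 2 higher members were homeobox factors, not secreted products. Dcpp3 was too low to test. Dcpp2 and Dcpp1 encode secreted proteins of a small family whose near-identical copies can share reads. Dcpp2 had no read in any tumour, against 89, 81.7 and 304 CPM in the oviducts, at least 964-fold lower when each tumour is set to 3 reads (adjusted p = 2.38e-05). Dcpp1 had 0.106, 0.109 and 0 CPM in the tumours and 95.3, 88.3 and 348 CPM in the oviducts (log2 fold change -11.11 ± 1.21, adjusted p = 2.05e-05). Both were highest in oviduct 3, and DESeq2 called neither (adjusted p = 0.0929 for Dcpp2 and 0.0616 for Dcpp1). Ltf, lactoferrin, was high in tumour 1 alone among the tumours, at 704, 1.8 and 0.17 CPM in the tumours and 1322, 1152 and 1996 CPM in the oviducts (log2 fold change -2.66 ± 2.02, adjusted p = 0.323). Wfdc2, the HE4 marker of serous carcinoma, was even across the tumours at 80.6, 78.8 and 79 CPM, against 143, 100.2 and 102 CPM in the oviducts (log2 fold change -0.53 ± 0.96, adjusted p = 0.701).

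The homeobox factors Emx2 and Lhx1, which act in development of the urogenital tract, were the higher members of the secretory cell list. Emx2 had 109, 329 and 489 CPM in the tumours and 74.1, 72.8 and 65.2 CPM in the oviducts (log2 fold change 2.13 ± 0.52, adjusted p = 0.0032). Lhx1 had 0.265, 3.49 and 15.7 CPM in the tumours and 0.24, 0.416 and 0.385 CPM in the oviducts (log2 fold change 4.19 ± 1.35, adjusted p = 0.021), and its call was lost without tumour 3, oviduct 1, oviduct 2 or oviduct 3 (adjusted p = 0.0579 to 0.186). Tumour 1 was the lowest tumour for both, and for Lhx1 it lay inside the oviduct range.

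Ciliated cell genes were low in the tumours. Of 27 tested members of 30 listed, 17 were called lower and none higher (median log2 fold change -3.51), beside 17.3% called lower among all genes. Mcidas was too low to test, and Dnai1 and Dnai2 were not found in the tables under those symbols. The list sum was 235, 181 and 369.9 CPM in the tumours and 1300, 1926 and 1279 CPM in the oviducts. Foxj1, the master factor of motile cilia, had 33.3, 12.6 and 37.6 CPM in the tumours, against 209, 335 and 230.2 CPM in the oviducts (log2 fold change -3.21 ± 1.13, adjusted p = 0.031), a call lost without tumour 1, tumour 2, tumour 3 or oviduct 2 (adjusted p = 0.0601 to 0.116). Hydin, a protein of the central pair of the axoneme, had 3.44, 0.0546 and 0.113 CPM in the tumours and 51.9, 90.5 and 43.2 CPM in the oviducts (log2 fold change -5.67 ± 1.60, adjusted p = 0.0114). Tekt4, a tektin of axonemal microtubules, had 0.794, 0.164 and 0.113 CPM in the tumours and 24, 29.2 and 24 CPM in the oviducts (log2 fold change -6.14 ± 1.49, adjusted p = 0.00447). Tumour 1 was the highest tumour for both structural genes and lay far below every oviduct. Fam183b, a cilium gene (log2 fold change -6.21 ± 1.40, adjusted p = 0.00217), and Dynlrb2, a dynein light chain (log2 fold change -5.03 ± 1.16, adjusted p = 0.00207), were lower too. The count of calls moved to 10 without tumour 2 and to 11 without tumour 3. Those fits called 2391 of 20848 and 2233 of 20853 of all genes lower. With oviduct 2 alone the list's median log2 fold change was -3.65.

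Hox genes give segments of the Müllerian duct their identity. Of 20 tested Müllerian and homeobox factors, 10 were called lower, all of them Hox genes, and 2 higher (median log2 fold change -3.40), beside 17.3% and 15.3% of all genes. Hoxa13, the remaining Hox gene of the list, had no read in any tumour or oviduct. Hoxa9, which marks the oviduct along the Müllerian tract, fell to 0.371, 0.0546 and 0.397 CPM in the tumours, against 39.8, 42.4 and 40.8 CPM in the oviducts (log2 fold change -7.19 ± 1.34, adjusted p = 0.000305). Hoxa10, a factor of the uterus, had 0.053, 0 and 0.17 CPM in the tumours and 35.8, 19.2 and 23.1 CPM in the oviducts (log2 fold change -8.33 ± 1.75, adjusted p = 0.000958). Hoxc10, another posterior Hox gene, had 0.106, 0 and 0 CPM in the tumours and 10.3, 7.12 and 10.7 CPM in the oviducts. Hoxa11 had no read in any tumour, against 10.5, 4.21 and 4.71 CPM in the oviducts, at least 39.4-fold lower, and its call was lost without tumour 1, tumour 2 or tumour 3 (adjusted p = 0.0553 to 0.0708). For each of these Hox genes every tumour lay below every oviduct. Hox genes are also expressed in the muscle and stroma of the tract, whose transcripts were low in the tumours, and the part of that in the Hox values was not tested. The 2 higher members were Emx2 and Lhx1, which are counted in the secretory cell list too.

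Genes of ovarian surface epithelium and mesothelium were high in the tumours. Of 17 tested members of 18 listed (Calb2 was too low to test), 10 were called higher and none lower (median log2 fold change 1.90). Among all genes 15.3% were called higher. The list sum was 2940, 3831 and 3978 CPM in the tumours and 1084, 1329 and 1350 CPM in the oviducts. In tumours 1, 2 and 3, 13, 14 and 13 of the 17 lay above the oviduct range, counts for which no share over all genes was taken. The oviduct is itself covered by mesothelium, and the labels do not say how much serosa each piece held.

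Lhx2, a homeobox factor, showed the largest change, at 2.54, 117 and 168 CPM in the tumours and 0.18, 0.052 and 0.192 CPM in the oviducts (log2 fold change 9.34 ± 1.62, adjusted p = 0.000143). Tumour 1 was nearer to oviduct than to the other tumours. Gata4, a factor of gonadal and mesothelial cells, had 362, 185 and 374 CPM in the tumours and 50.4, 2.6 and 41.6 CPM in the oviducts (log2 fold change 3.28 ± 0.94, adjusted p = 0.00969). Oviducts 1 and 3, which carried ovarian transcripts, held most of the oviductal Gata4, and against oviduct 2 alone the difference was log2 fold change 6.85 ± 1.69, adjusted p = 0.0108. Lrrn4, a mesothelial surface protein, had 170, 277 and 471 CPM in the tumours and 26.8, 50.3 and 25.4 CPM in the oviducts (log2 fold change 3.16 ± 1.07, adjusted p = 0.0262), a call lost without tumour 3, oviduct 1 or oviduct 3 (adjusted p = 0.0832 to 0.0895). Gpm6a, a membrane glycoprotein, had 59.1, 231 and 161 CPM in the tumours and 11.9, 27.5 and 16.5 CPM in the oviducts (log2 fold change 3.01 ± 0.89, adjusted p = 0.0117), a call lost without oviduct 1 (adjusted p = 0.0522). Both were above the oviduct range in every tumour.

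Upk3b, an uroplakin of mesothelium, was at 585, 1126 and 1017 CPM in the tumours and 98.2, 203 and 179 CPM in the oviducts (log2 fold change 2.50 ± 0.90, adjusted p = 0.0357), a call kept only without tumour 1 among the fits that left out a library (adjusted p = 0.0669 to 0.117 in the others). Msln, mesothelin, was not higher, with 67.1, 13.6 and 3.85 CPM in the tumours and 54.2, 88.3 and 98.2 CPM in the oviducts (log2 fold change -1.51 ± 0.96, adjusted p = 0.236). The count of called members moved to 4 without oviduct 1 or oviduct 3 and to 5 without tumour 3. Those fits called 2435 of 20855, 2297 of 20826 and 2376 of 20853 of all genes higher. Against oviduct 2 alone the list's median log2 fold change was 1.80. Wt1 was not called in that comparison (log2 fold change 1.86 ± 0.85).

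Transcripts of the oviduct wall were low in the tumours. Of 16 smooth muscle genes, 14 were called lower and none higher (median log2 fold change -5.56), beside 17.3% called lower among all genes. With oviduct 2 as the only oviduct library the median of these 16 genes was -5.71. Their sum was 1127, 1112 and 936 CPM in the tumours and 17010, 15860 and 13720 CPM in the oviducts. Myh11, the smooth muscle myosin, had 45.9, 8.13 and 5.61 CPM in the tumours, against 3644, 3706 and 3259 CPM in the oviducts (log2 fold change -7.47 ± 1.05, adjusted p = 9.89e-06). Actg2, enteric smooth muscle actin, had 16, 1.47 and 0.51 CPM in the tumours and 1348, 978 and 654 CPM in the oviducts (log2 fold change -7.36 ± 1.39, adjusted p = 0.000343). Myocd, the coactivator that sets the smooth muscle program, had 0.583, 0 and 0.113 CPM in the tumours and 28.3, 32.2 and 35 CPM in the oviducts (log2 fold change -7.05 ± 1.37, adjusted p = 0.000449). In each of these genes the tumours were far below the oviducts and tumour 1 was the highest tumour. Pcp4, a calmodulin-binding peptide abundant in this muscle, had 0, 0.0546 and 1.13 CPM in the tumours and 119.7, 67 and 62.2 CPM in the oviducts (log2 fold change -7.70 ± 1.68, adjusted p = 0.00135), with tumour 3 the highest tumour.

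Of 10 adipocyte genes, 9 were called lower, beside 17.3% of all genes (median log2 fold change -9.96, or -8.23 with the 3 genes that had no read in any tumour set to their bound). The list sum was 54.8, 68.7 and 62.5 CPM in the tumours and 958, 1558 and 1704 CPM in the oviducts. Cfd, the adipokine adipsin, had no read in any tumour, against 432, 473 and 842 CPM in the oviducts, at least 3546-fold lower (adjusted p = 0.00577). Cidec, a lipid droplet protein, had none either, against 61.2, 109.6 and 120.2 CPM, at least 591-fold lower (adjusted p = 0.0048). Lep, leptin, had none in the tumours and 4.8, 26.7 and 5.87 CPM in the oviducts, at least 75.8-fold lower. Adipoq, adiponectin, gave a single read in tumour 1 (0.053 CPM) and none in the others, against 75, 150 and 134 CPM in the oviducts (adjusted p = 0.00419). These defining adipocyte transcripts were thus at or near 0 in every tumour and present in every oviduct, and how much fat came with each oviduct is not labelled.

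**Figure D4:**
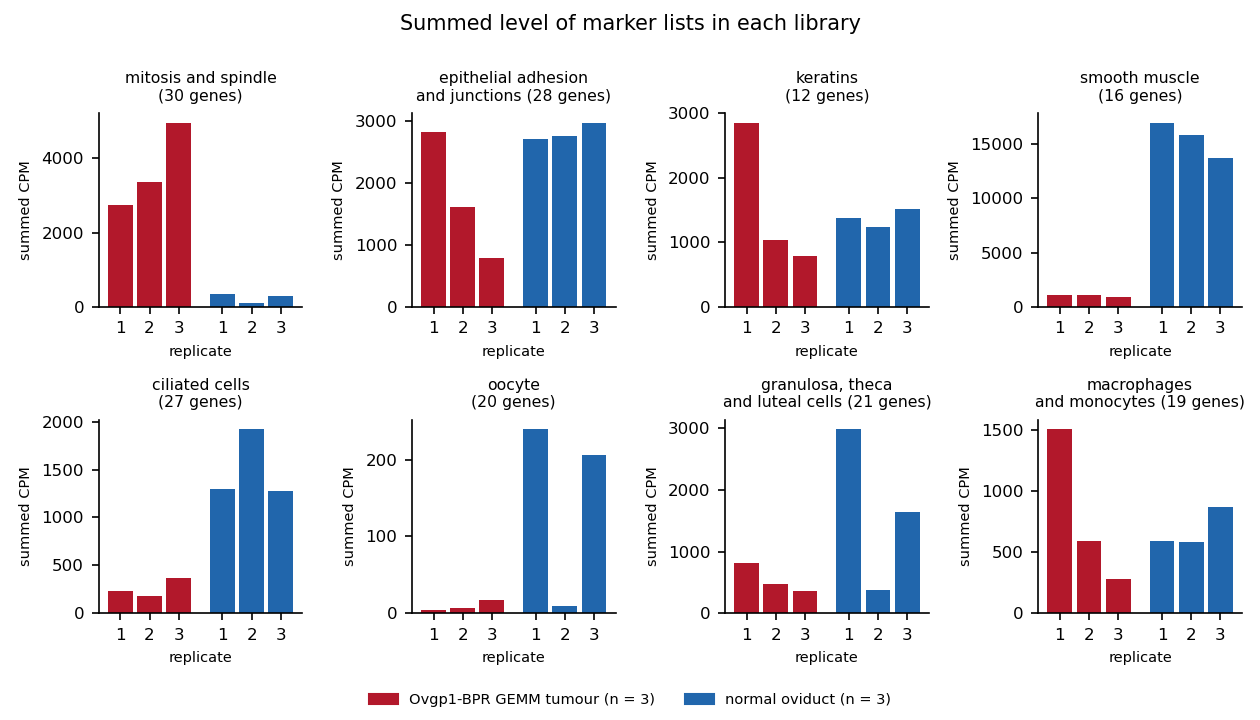
Summed CPM of 8 gene lists in each library, with bars from 0 and the 3 tumours left of the 3 oviducts. The mitosis bars are highest in tumours, and the smooth muscle and ciliated bars are highest in oviducts. Among tumours, the epithelial, keratin and macrophage bars are highest in tumour 1 and lowest in tumour 3. The oocyte bars are high only in oviducts 1 and 3.

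Of 22 tested collagen and matrix genes, 9 were called lower and none higher (median log2 fold change -1.18), beside 17.3% and 15.3% of all genes. In tumours 1, 2 and 3, 6, 5 and 4 of them lay above the oviduct range and 13, 13 and 16 below it. Lum, lumican of fibrillar matrix, had 26.4, 0.218 and 0 CPM in the tumours and 397, 416 and 251 CPM in the oviducts (log2 fold change -5.32 ± 1.76, adjusted p = 0.0235), a call lost without tumour 2 or tumour 3 (adjusted p = 0.0755 to 0.0826). Col1a2, a chain of type I collagen, had 275, 39.6 and 18.4 CPM in the tumours, against 2859, 2663 and 1709.6 CPM in the oviducts (log2 fold change -4.44 ± 1.26, adjusted p = 0.00937). Postn, periostin, had 48.7, 22.9 and 9.06 CPM in the tumours and 461, 461 and 496 CPM in the oviducts (log2 fold change -4.14 ± 1.00, adjusted p = 0.00298). For these the tumours were all below the oviducts and tumour 1 was the highest tumour. Col6a3 was lower as well (log2 fold change -3.97 ± 0.94, adjusted p = 0.00257). The basement membrane collagen Col4a1 stood at 845, 869 and 511 CPM in the tumours and 689, 551 and 701 CPM in the oviducts (log2 fold change 0.20 ± 0.50, adjusted p = 0.793). Among 16 matrix proteases and inhibitors, the single call (median log2 fold change 0.16) was Mmp13, collagenase 3, at 1.54, 5.62 and 1.25 CPM in the tumours and 0.06, 0.208 and 0.337 CPM in the oviducts (log2 fold change 3.70 ± 1.11, adjusted p = 0.0134), and it was lost without tumour 2 or oviduct 1 (adjusted p = 0.0545 to 0.0906).

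Transcripts of oocytes and of steroid-making cells were lower in the tumours, and oviducts 1 and 3 carried most of the difference. The oocyte list summed to 3.44, 6.11 and 17.6 CPM in the tumours and to 240, 9.04 and 205 CPM in the oviducts. The granulosa, theca and luteal list summed to 809.5, 472 and 355 CPM in the tumours and 2995, 380.4 and 1646 CPM in the oviducts. Oviduct 2 was thus at or near the tumours in both. The oocyte list gave 16 of 20 members lower (median log2 fold change -6.39, or -4.91 with the 5 genes at 0 in the tumours at their bound). The granulosa, theca and luteal list gave 11 of 21 lower and 2 higher (median -4.05, or -3.33 with 3 genes at their bound). With oviduct 2 as the only oviduct library 2 of 20 and 2 of 21 were called lower, and in a fit of the 6 compared libraries 6 of 11 oocyte genes and 6 of 18 granulosa, theca and luteal genes that passed its filter were.

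Nlrp14, a maternal gene of oocytes, had no read in any tumour and 28.9, 0.988 and 26.3 CPM in the oviducts. It was at least 114-fold lower in the tumours and was 1 of the 2 oocyte genes called against oviduct 2 alone (adjusted p = 0.0317). Nlrp5, an oocyte gene needed for early cleavage, had no read in the tumours and 18.9, 1.09 and 20.9 CPM in the oviducts. Tcl1, an activator of Akt in oocytes, had none in the tumours and 5.7, 0.156 and 4.47 CPM in the oviducts. Padi6, a protein of the oocyte lattice, had 0.106, 0.0546 and 0 CPM in the tumours and 40.2, 1.25 and 33.1 CPM in the oviducts. For each of them oviduct 2 was far below oviducts 1 and 3. None of these 3 was called against oviduct 2 alone, and Tcl1 was not called by DESeq2 (adjusted p = 0.344). Cyp11a1, which starts steroid synthesis from cholesterol, gave 1 read in tumour 1 and none in the others, against 594, 11.1 and 214 CPM in the oviducts. It was called with oviduct 2 alone (adjusted p = 0.022). Lhcgr, the receptor for luteinizing hormone, had no read in the tumours and 56.8, 0.26 and 13.3 CPM in the oviducts, and was not called with oviduct 2 alone (adjusted p = 0.28). Hsd3b1, another enzyme of steroid synthesis, had 0.53, 0 and 0 CPM in the tumours and 691, 9.25 and 386 CPM in the oviducts. Akr1c18, which breaks down progesterone, had 0.053, 0 and 0 CPM in the tumours and 83.7, 2.13 and 55.8 CPM in the oviducts. All of these luteal genes were highest in oviduct 1.

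Amhr2, the receptor for anti-Müllerian hormone, was one of the 2 members that rose, at 284, 140.4 and 44 CPM in the tumours and 28.3, 3.85 and 26.1 CPM in the oviducts (log2 fold change 3.01 ± 0.91, adjusted p = 0.0137). The call was lost without tumour 1 or oviduct 2 (adjusted p = 0.0605 to 0.0626) and held against oviduct 2 alone (log2 fold change 5.30 ± 1.64, adjusted p = 0.0399). Nr4a1, an immediate early nuclear receptor, was the other (log2 fold change 1.3 ± 0.48, adjusted p = 0.0377), a call lost without tumour 2, tumour 3, oviduct 2 or oviduct 3 (adjusted p = 0.0524 to 0.268). Among 8 steroid hormone receptors, 1 was higher and 2 lower (median log2 fold change -0.12). Nr3c1, the glucocorticoid receptor, had 88.2, 109 and 170.2 CPM in the tumours and 41.3, 56 and 45.9 CPM in the oviducts (log2 fold change 1.36 ± 0.35, adjusted p = 0.00491). Esr2, oestrogen receptor beta, was at 0.212, 0 and 0 CPM in the tumours and 22.8, 0.52 and 14.1 CPM in the oviducts (log2 fold change -7.29 ± 1.74, adjusted p = 0.00294), and the difference was not called against oviduct 2 alone (log2 fold change -2.77 ± 1.96, adjusted p = 0.4). Pgr, the progesterone receptor, was at 4.45, 22.9 and 9.18 CPM in the tumours and 177, 168 and 58 CPM in the oviducts (log2 fold change -3.47 ± 1.33, adjusted p = 0.0471), a call lost without tumour 1, tumour 2, tumour 3, oviduct 1, oviduct 2 or oviduct 3 (adjusted p = 0.0514 to 0.134). Esr1, oestrogen receptor alpha, differed among the tumours instead, at 143, 499 and 545 CPM in the tumours and 336, 438 and 355 CPM in the oviducts (log2 fold change 0.07 ± 0.81, adjusted p = 0.961), with tumour 1 below and tumours 2 and 3 above every oviduct.

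Hypoxia and glycolysis genes were higher for 11 of 22 tested entries (21 symbols, Aldoa having a pair of gene IDs) and lower for none (median log2 fold change 1.34). Among all genes 15.3% were called higher. Car9, carbonic anhydrase 9 of hypoxic cells, had 99.8, 137 and 256 CPM in the tumours, against 3.36, 3.01 and 2.84 CPM in the oviducts (log2 fold change 5.74 ± 0.94, adjusted p = 6.96e-05). Vegfa, the main angiogenic growth factor, had 1033, 1779.7 and 1014 CPM in the tumours and 150.3, 167 and 196 CPM in the oviducts (log2 fold change 2.90 ± 0.56, adjusted p = 0.0004). Egln3, an oxygen-sensing hydroxylase, had 133, 224 and 91.2 CPM in the tumours and 20.6, 11.5 and 37.6 CPM in the oviducts (log2 fold change 2.69 ± 0.63, adjusted p = 0.00241). No tumour overlapped the oviducts for these genes, as for 54.2% of all genes. Ndrg1, a hypoxia-inducible gene, was higher as well (log2 fold change 2.34 ± 0.56, adjusted p = 0.00287).

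Of 18 tested endothelial and angiogenic genes, 5 were higher, Vegfa among them, and 4 lower (median log2 fold change -0.34), beside 15.3% and 17.3% of all genes. Cdh5, the cadherin of endothelium, stood at 68.1, 65.6 and 51.2 CPM in the tumours and 64.1, 65.9 and 70.0 CPM in the oviducts (log2 fold change -0.11 ± 0.30, adjusted p = 0.8). Tek, the angiopoietin receptor, was lower (log2 fold change -3.05 ± 0.60, adjusted p = 0.000534), as was Lyve1 of lymphatic vessels (log2 fold change -3.38 ± 0.88, adjusted p = 0.00552). Angpt2, the ligand that destabilizes vessels, was higher (log2 fold change 2.35 ± 0.56, adjusted p = 0.00283), and so was Pdpn, podoplanin of lymphatic and mesothelial cells, at 294, 409 and 522 CPM in the tumours and 42.4, 63.1 and 68.3 CPM in the oviducts (log2 fold change 2.82 ± 0.47, adjusted p = 9.04e-05). Esam, a junction molecule, was higher (log2 fold change 1.64 ± 0.45, adjusted p = 0.0073), a call lost without tumour 3 (adjusted p = 0.133).

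Interferon-response genes were higher for 9 of 25 tested members and lower for 1 (median log2 fold change 0.83), beside 15.3% and 17.3% of all genes. Cxcl10, an interferon-induced chemokine, had 23.7, 70.4 and 24.6 CPM in the tumours, against 0.12, 0.052 and 0.385 CPM in the oviducts (log2 fold change 7.65 ± 1.17, adjusted p = 3.24e-05). Oasl2, an oligoadenylate synthetase-like gene, had 336, 283 and 329 CPM in the tumours and 32.1, 43.8 and 62.1 CPM in the oviducts (log2 fold change 2.78 ± 0.38, adjusted p = 7.79e-06). Its relative Oasl1 had 49, 51.9 and 25.4 CPM in the tumours and 3.42, 1.56 and 6.69 CPM in the oviducts (log2 fold change 3.43 ± 0.53, adjusted p = 3.22e-05). These 3 genes were high in every tumour. Ifit3, by contrast, was at 49.3, 12.5 and 3.4 CPM in the tumours and 1.68, 3.53 and 3.37 CPM in the oviducts (log2 fold change 2.92 ± 0.82, adjusted p = 0.00916), with tumour 3 inside the oviduct range, and its call was lost without tumour 1 (adjusted p = 0.143). Isg20, an exonuclease, was the member that fell (log2 fold change -1.98 ± 0.52, adjusted p = 0.00542).

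Antigen presentation genes separated tumour 1. Their sum was 6285, 1343 and 1061 CPM in the tumours and 1355, 1712 and 1737 CPM in the oviducts, and 2 of 17 tested members were called, both higher (median log2 fold change 0.65). Without tumour 1, 2 were higher and 2 lower, and without tumour 2, 4 were higher. H2-K1, a class I heavy chain, had 1288, 122 and 82.1 CPM in the tumours and 124, 118 and 146 CPM in the oviducts (log2 fold change 1.94 ± 0.81, adjusted p = 0.0678). Cd74, the class II invariant chain, had 998, 103 and 37.9 CPM in the tumours and 166, 313 and 246 CPM in the oviducts (log2 fold change 0.65 ± 1.04, adjusted p = 0.661). In both, tumour 1 was several-fold above every other library. Tapbp, tapasin of peptide loading, was higher in all 3 tumours, at 568, 373 and 450.1 CPM in the tumours and 147, 176 and 188 CPM in the oviducts (log2 fold change 1.45 ± 0.30, adjusted p = 0.000906). H2-Eb1, a class II beta chain, had 219, 22.5 and 9.29 CPM in the tumours and 1.14, 1.72 and 1.68 CPM in the oviducts (log2 fold change 5.77 ± 1.26, adjusted p = 0.00132), and stood at 0.712 to 1.09 CPM in the normal ovaries of the series.

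Leukocyte lists gave few calls. Macrophage and monocyte genes summed to 1506, 592 and 282 CPM in the tumours and 589, 578 and 865 CPM in the oviducts, and 2 of 19 were called, both higher (median log2 fold change 0.28). Without tumour 1 none was higher and 2 were lower, and without oviduct 2 none was called. The 2 called genes were Msr1, a scavenger receptor (log2 fold change 2.16 ± 0.67, adjusted p = 0.016), lost without tumour 1 or oviduct 2 (adjusted p = 0.0645 to 0.0862), and Fcgr3, an Fc receptor (log2 fold change 1.16 ± 0.44, adjusted p = 0.0434), lost without tumour 1, tumour 2, oviduct 1 or oviduct 2 (adjusted p = 0.0601 to 0.253). The Fcgr3 call was also lost with RLE factors, no filter, a minimum count of 30 or only the compared libraries (adjusted p = 0.0511 to 0.0691 by edgeR). Among 14 tested neutrophil genes of 15, 4 were higher and 3 lower (median log2 fold change 1.12), beside 15.3% and 17.3% of all genes. The higher ones included the chemokines Cxcl5, at 4.56, 50.5 and 0.793 CPM in the tumours and 0.12, 0 and 0.289 CPM in the oviducts (log2 fold change 6.99 ± 1.50, adjusted p = 0.00115), Cxcl2 (log2 fold change 5.04 ± 1.10, adjusted p = 0.0013) and Cxcl1 (log2 fold change 4.09 ± 1.06, adjusted p = 0.00499), which other cells also make, and the lower ones included the granule protease Mmp8 (log2 fold change -4.59 ± 0.96, adjusted p = 0.000951). Cxcl5 was highest in tumour 2.

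The T and NK cell list summed to 15.5, 6.33 and 5.78 CPM in the tumours and 19.9, 25.2 and 19.9 CPM in the oviducts, with 2 of 20 tested members of 22 lower (median log2 fold change -1.08, 6 lower without tumour 1), among them Zap70, a kinase of T cell signalling (log2 fold change -2.80 ± 0.82, adjusted p = 0.0116), a call lost without tumour 2 (adjusted p = 0.0622). The B and plasma cell list, 11 tested of 12 with a median log2 fold change of -0.67, gave 1 higher call, the B-lineage factor Pax5 (log2 fold change 3.94 ± 1.32, adjusted p = 0.0243), lost without tumour 3, oviduct 1 or oviduct 3 (adjusted p = 0.0849 to 0.226), and 1 lower, the plasma cell chaperone Mzb1 (log2 fold change -5.25 ± 1.86, adjusted p = 0.0325), lost without tumour 2, tumour 3 or oviduct 2 (adjusted p = 0.0689 to 0.11). Elane, Ncr1, Ifng and Tnfrsf17 were too low to test. The defining T cell gene Cd3e was at 1.17, 0.164 and 0.0566 CPM in the tumours and 0.841, 0.832 and 0.625 CPM in the oviducts. In every library of both groups it was at or below 1.17 CPM.

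Wnt genes and their targets gave 3 higher and 5 lower calls of 28 tested of 29 (Dkk1 was too low), beside 15.3% and 17.3% of all genes, with a median log2 fold change of 0.50. A single member remained higher in each fit that left out a library other than tumour 1. Lgr5, a Wnt-responsive receptor of stem cells, had 5.08, 90.4 and 237 CPM in the tumours and 3.24, 3.79 and 4.52 CPM in the oviducts (log2 fold change 4.84 ± 1.43, adjusted p = 0.0122), and its call was lost without tumour 3 (adjusted p = 0.0635). Rspo3, a ligand of that receptor family, had 1.32, 0 and 0.85 CPM in the tumours and 28.6, 39.7 and 49 CPM in the oviducts (log2 fold change -5.74 ± 1.76, adjusted p = 0.015), a call lost without tumour 2 or tumour 3 (adjusted p = 0.0528 to 0.0577). The ligand Wnt7a, which patterns the Müllerian duct, had 0.636, 0.382 and 0.34 CPM in the tumours and 11.2, 10.8 and 9.19 CPM in the oviducts (log2 fold change -4.50 ± 1.10, adjusted p = 0.00376). Tumour 1 was near oviduct for Lgr5 and all tumours were low for Wnt7a. The secreted antagonists Sfrp4 (log2 fold change -5.42 ± 1.49, adjusted p = 0.00774) and Dkk2 (log2 fold change -4.34 ± 0.97, adjusted p = 0.00166) were lower, and the ligand Wnt10a was higher (log2 fold change 4.58 ± 1.55, adjusted p = 0.0258), a call lost without tumour 2, oviduct 1, oviduct 2 or oviduct 3 (adjusted p = 0.0698 to 0.113).

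Among 24 Hippo, Myc and growth factor genes, 6 were higher and 2 lower (median log2 fold change 0.31), beside 15.3% and 17.3% of all genes. Without oviduct 1 or oviduct 2, 3 were higher each time, where 2435 of 20855 and 2467 of 20818 of all genes were. Met, the receptor for hepatocyte growth factor, had 67.7, 201 and 135 CPM in the tumours and 17.5, 19.7 and 23.3 CPM in the oviducts (log2 fold change 2.74 ± 0.48, adjusted p = 0.000178). The Yap targets Ankrd1 (log2 fold change 3.85 ± 1.45, adjusted p = 0.0443), Ccn2 (log2 fold change 2.43 ± 0.81, adjusted p = 0.0244) and Ccn1 (log2 fold change 1.69 ± 0.63, adjusted p = 0.0415) were higher. Their calls were lost without tumour 1, tumour 2, oviduct 1, oviduct 2 or oviduct 3 (adjusted p = 0.0582 to 0.176) for Ankrd1, without tumour 1, oviduct 1 or oviduct 2 (adjusted p = 0.0765 to 0.189) for Ccn2 and without tumour 2, tumour 3, oviduct 2 or oviduct 3 (adjusted p = 0.0822 to 0.155) for Ccn1. Fgf2, a fibroblast growth factor, was lower (log2 fold change -3.01 ± 0.58, adjusted p = 0.000453), as was Mecom, a transcription factor (log2 fold change -2.27 ± 0.83, adjusted p = 0.0378), a call lost without tumour 2, tumour 3, oviduct 1, oviduct 2 or oviduct 3 (adjusted p = 0.0635 to 0.14). Myc itself stood at 56.3, 72.1 and 36.3 CPM in the tumours and 49.9, 41.3 and 41.7 CPM in the oviducts (log2 fold change 0.31 ± 0.42, adjusted p = 0.602).

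Of 17 oncofetal and imprinted genes, 2 were higher and 1 lower (median log2 fold change -1.45). Hmga1, a chromatin protein of growing cells, had 27, 66.8 and 24.2 CPM in the tumours and 6.12, 6.03 and 8.47 CPM in the oviducts (log2 fold change 2.51 ± 0.61, adjusted p = 0.00313). Igf2bp1, an RNA-binding protein of fetal tissue, was higher (log2 fold change 3.84 ± 1.27, adjusted p = 0.0231), a call lost without tumour 1, oviduct 1, oviduct 2 or oviduct 3 (adjusted p = 0.0501 to 0.074), and Igf2, the imprinted growth factor, lower (log2 fold change -3.94 ± 1.41, adjusted p = 0.0342), a call lost without tumour 2, tumour 3, oviduct 1, oviduct 2 or oviduct 3 (adjusted p = 0.0539 to 0.116). Markers of other tissues were lower or uncalled. Of 10 skeletal muscle genes (median log2 fold change -1.3) 3 were lower, namely Tnnt3 (log2 fold change -6.81 ± 1.80, adjusted p = 0.0059), Tnni2 (log2 fold change -6.08 ± 1.40, adjusted p = 0.00203) and Acta1 (log2 fold change -5.14 ± 1.92, adjusted p = 0.0414), the last lost without tumour 1, tumour 2, tumour 3, oviduct 1, oviduct 2 or oviduct 3 (adjusted p = 0.0533 to 0.11). Of 10 pancreatic acinar genes 3 were high enough to test and 1 was lower (median -0.36). Of 7 tested erythroid genes of 8 (Ahsp was not found under that symbol, median -0.46) 1 was lower, the globin Hba-a1 (log2 fold change -2.78 ± 0.95, adjusted p = 0.0277), whose near-identical copy Hba-a2 can share its reads and whose call was lost without tumour 2, tumour 3 or oviduct 2 (adjusted p = 0.073 to 0.107).

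The 12 largest rises were taken from called genes at 10 CPM or more with no overlap between the groups, leaving out predicted genes. They included Cdkn2a, Lhx2 and Cxcl10. Trim12a, a member of the Trim5-like antiviral family, stood at 44.6, 38.9 and 35 CPM in the tumours, against 0, 0.052 and 0.0962 CPM in the oviducts (adjusted p = 3.08e-09). Gabrq, a subunit of the receptor for the transmitter GABA, had 28.7, 53.8 and 69.3 CPM in the tumours and 0.12, 0.052 and 0.144 CPM in the oviducts (log2 fold change 8.81 ± 1.29, adjusted p = 1.78e-05). Htr4, a serotonin receptor, had 7.79, 17.6 and 20.1 CPM in the tumours and 0, 0.052 and 0.192 CPM in the oviducts (log2 fold change 7.36 ± 1.73, adjusted p = 0.00248). All of these were at or near 0 in each oviduct.

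Tbx15, a T-box factor of mesoderm, had 36.8, 29.4 and 73.8 CPM in the tumours and 0.18, 0 and 0.0481 CPM in the oviducts (log2 fold change 9.20 ± 2.15, adjusted p = 0.00233). Nxph1, a secreted ligand of neurexins, had 14.4, 15.8 and 102 CPM in the tumours and 0, 0.052 and 0.0962 CPM in the oviducts (adjusted p = 0.00179). Dsc3, a desmosomal cadherin, had 1.38, 4.86 and 31.8 CPM in the tumours and 0, 0.104 and 0 CPM in the oviducts (adjusted p = 0.000968). Tumour 3 was the highest tumour for all 3 genes. Col10a1, a collagen of growth cartilage, went the other way, with 30.5, 5.19 and 0.397 CPM in the tumours and 0.06, 0 and 0 CPM in the oviducts (adjusted p = 0.0339), and its call was lost without tumour 1, oviduct 1, oviduct 2 or oviduct 3 (adjusted p = 0.0895 to 0.126). Irx1, a homeobox gene, was at 25, 0.273 and 15.6 CPM in the tumours and 0, 0 and 0.0962 CPM in the oviducts (adjusted p = 0.0354), and its call was lost without tumour 1, tumour 3, oviduct 1, oviduct 2 or oviduct 3 (adjusted p = 0.06 to 0.104). Pgc, progastricsin, ranged widest, at 0.689, 48.4 and 828 CPM in the tumours and 0.3, 0.26 and 0.0962 CPM in the oviducts (log2 fold change 10.37 ± 2.77, adjusted p = 0.00634). Its rise rested on tumours 2 and 3, with tumour 1 under 1 CPM.

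Of the 12 largest falls by the same rule, Cfd, Cidec, Adipoq, Dcpp1, Dcpp2, Cyp11a1, Lhcgr and Nlrp14 have been described with their lists. Apoa4, an apolipoprotein, had no read in the tumours and 46.1, 1.4 and 30.7 CPM in the oviducts, with 110.3 to 140 CPM in normal ovary, and was not called against oviduct 2 alone (adjusted p = 0.0713). Clca1, a secreted protein of mucous cells, was at 0.212, 0.0546 and 0 CPM in the tumours and 404, 0.416 and 524 CPM in the oviducts (log2 fold change -11.63 ± 3.62, adjusted p = 0.0173), with oviduct 2 level with the tumours, and its call was lost without tumour 2 or tumour 3 (adjusted p = 0.0644 to 0.0685). Ccl21a, a chemokine of lymphatic vessels with near-identical gene copies, gave 2 reads in tumour 1 and none in the others, against 155, 139.6 and 166 CPM in the oviducts (adjusted p = 0.000103).

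Ifi202b, an interferon-inducible gene known to differ between mouse strains in expression, had no read in any tumour. The oviducts held 14.5, 14.3 and 14.8 CPM, so that the tumours, at 3 reads each, were at least 88.7-fold lower (adjusted p = 0.00263). Normal ovaries of the series held 13.7 to 27.6 CPM. Trim12a was all but absent from normal ovary too (0 to 0.0693 CPM), and the class II gene H2-Eb1 was near 0 in oviduct and ovary alike. The labels give C57Bl/6 for tumours and normal tissues alike. In the Ad-BPR and Pax8-BPR tumours Ifi202b was at 0.0551 to 48.7 CPM and Trim12a at 12 to 24.2 CPM, and in the Ovgp1-BPR allografts they were at 0, 0 and 3.36 CPM and 56.2, 48.5 and 43.3 CPM. H2-Eb1 was at 38.7 to 359 CPM in the Ad-BPR and Pax8-BPR tumours and at 25.3, 32.6 and 310.1 CPM in the allografts. The part of strain background in these values, that of H2-Eb1 included, was not tested.

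Of the 12 genes with the widest spread between tumours, among those at 50 CPM or more in the highest tumour, 7 were high in tumour 1 alone, Ltf among them. A2ml1, a protease inhibitor, had 272, 0 and 0.0566 CPM in the tumours and 245, 317 and 618 CPM in the oviducts (log2 fold change -2.12 ± 1.81, adjusted p = 0.387). Pigr, the receptor that carries antibodies across epithelium, had 51.3, 0 and 0.0566 CPM in the tumours and 39.3, 7.59 and 98.5 CPM in the oviducts (log2 fold change -1.50 ± 1.57, adjusted p = 0.487). Wfdc18, a secreted protease inhibitor, had 63.7, 0.546 and 0 CPM in the tumours and 29.4, 32.4 and 109 CPM in the oviducts (log2 fold change -1.41 ± 1.98, adjusted p = 0.616). For these secreted or epithelial products tumour 1 was in or near the oviduct range and tumours 2 and 3 were near 0. Akr1cl (139, 0 and 0 CPM in the tumours), Acsbg1, an acyl-CoA synthetase of steroid-making tissue (147, 0.218 and 0 CPM), and Sectm1b, an immune ligand (111, 0.0546 and 0 CPM), showed the same split.

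The other 5 genes of this set, Pgc among them, were high in tumours 2 or 3. Hoxd3, a Hox gene, had 0.53, 149 and 0 CPM in the tumours and 3.36, 5.46 and 5.34 CPM in the oviducts (log2 fold change 3.39 ± 2.19, adjusted p = 0.24), and so was high in tumour 2 alone, with tumours 1 and 3 below the oviducts. Tmem59l, a membrane protein of neurons, had 0.106, 29.3 and 211 CPM in the tumours and 1.92, 1.82 and 1.35 CPM in the oviducts (log2 fold change 5.56 ± 1.66, adjusted p = 0.0131), a call lost without tumour 3 (adjusted p = 0.139) or oviduct 3 (0.0527). The Tmem59l call was also lost with limma on log2(TPM + 1) (adjusted p = 0.0799) and in the edgeR fit of the compared libraries (0.0603). Alx4, a homeobox factor of limb mesenchyme, had 0.159, 46.7 and 113 CPM in the tumours and 3.24, 3.59 and 0.673 CPM in the oviducts (log2 fold change 4.41 ± 1.54, adjusted p = 0.03), a call lost without tumour 3 or any oviduct (adjusted p = 0.0663 to 0.131). In the edgeR fit of the compared libraries Alx4 was not called either (adjusted p = 0.0838). Nkx6-2, a homeobox factor of the nervous system, had 0.053, 25.3 and 51.9 CPM in the tumours and 0.06, 0.052 and 0.144 CPM in the oviducts (log2 fold change 8.09 ± 2.15, adjusted p = 0.00603). Tumour 3 was the highest for these last genes. Since they were chosen for their spread, the split is a description of 3 libraries.

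Whether the tumour-against-oviduct difference of this model differed from that of other oviduct models was asked by setting the Ovgp1-BPR tumours against the mean of the Ad-BPR and Pax8-BPR tumours, in which the oviduct term cancels. Of 20887 genes 5834 (27.9%) differed, 3126 (15.0%) higher and 2708 (13.0%) lower in the Ovgp1-BPR tumours. Without tumour 2 or tumour 3 the counts were 3542 and 3104. On log2(TPM + 1) with limma 65% of 6491 calls were higher, against 53.6% here, and the median log2 difference of all genes was 0.105, against -0.0019 here. The models also differ in their Trp53 allele, Cre driver and induction, and these cannot be told apart.

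Trp53 was higher in the Ovgp1-BPR tumours (157, 126 and 103 CPM) than in the other tumours (14.7 to 43 CPM), with a log2 difference of 2.56 ± 0.21, adjusted p = 3.05e-08. Ovgp1 was also higher (5.44 ± 0.89, adjusted p = 0.00014), with 1.45 to 17.7 CPM in the other tumours, and tumour 1 carried much of this: without it the difference was 2.05 (adjusted p = 0.014). Wt1 (1.55 ± 0.44, adjusted p = 0.012) and Rb1 (0.80 ± 0.26, adjusted p = 0.027) were higher, but Rb1 was not called without tumour 3 (adjusted p = 0.267), without the first Ad-BPR library (0.106), with no filter (0.0655) or in a fit of the compared libraries (0.0805). Wt1 was not called without the first Ad-BPR library (0.0558) or in the fit of the compared libraries (0.149). Brca1 (adjusted p = 1) and Cdkn2a (-0.26 ± 0.29, adjusted p = 0.521) were not called.

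Epithelial adhesion genes were lower for 15 of 28 and higher for none (median log2 difference -3.24), and keratins lower for 8 of 12 (median -3.28). Surface epithelium and mesothelium genes were higher for 11 of 17 and lower for 2 (median 3.35). Over all genes 15.0% were higher and 13.0% lower. Collagen and matrix genes were lower for 13 of 22 and higher for 1, and macrophage genes lower for 12 of 19. Without tumour 2 or without tumour 3 the lower calls numbered 5 epithelial genes and 4 keratins each time, and 4 and 3 macrophage genes, while 10 surface epithelium genes were higher each time and 11 and 10 collagen and matrix genes lower. Over all genes those fits called 1373 of 20848 and 1182 of 20853 lower, and 2169 and 1922 higher. Without the first Ad-BPR library 5 macrophage genes were lower, as were 2074 of 22147 of all genes. Of the mitosis list 4 of 30 were higher, near the 15.0% of all genes, and of the replication list 10 of 32. Without tumour 3 these counts were 1 and 0. Without the first or the second Ad-BPR library 4 replication genes were higher each time, where 2246 of 22147 and 2038 of 22148 of all genes were.

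Nell1, a secreted differentiation factor, had the largest log2 difference of the genes that met the naming rule. It had 48.6, 209 and 386 CPM in the Ovgp1-BPR tumours and 0 to 1.21 CPM in the others (10.78 ± 1.15, adjusted p = 2.86e-06). Aard, a small gene named for an alanine- and arginine-rich domain, had 52.5, 43.1 and 54.5 CPM in the Ovgp1-BPR tumours and 0 to 0.212 CPM in the others (9.58 ± 1.29, adjusted p = 1.71e-05). Cacna2d3, a calcium channel subunit, had 27.9, 54.4 and 102 CPM in the Ovgp1-BPR tumours, 0.0569 to 0.22 CPM in the others and 30.0, 35.9 and 27.7 CPM in the oviducts (8.82 ± 1.25, adjusted p = 3.41e-05). In this gene the Ovgp1-BPR tumours lay near oviduct and the other models far below. Gmnc, geminin coiled-coil protein that starts the multiciliated program, had 1.38, 14.7 and 26.2 CPM in the Ovgp1-BPR tumours and 0 to 0.11 CPM in the others (8.54 ± 1.33, adjusted p = 0.000405). Tll2, a metalloprotease (9.94 ± 1.47, adjusted p = 7.49e-05), Ctnna2, neuronal alpha catenin (9.11 ± 1.91, adjusted p = 0.00174), Shisal1 (8.58 ± 0.96, adjusted p = 1.67e-06) and Nr0b2, the nuclear receptor Shp (8.37 ± 1.10, adjusted p = 3.15e-05), completed the rises by the naming rule.

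The largest falls against the other models by the naming rule included Krt6a, a keratin of stressed epithelium. Krt6a was at 0.794, 0 and 0 CPM in the Ovgp1-BPR tumours and 3.64 to 1075 CPM in the others (-10.18 ± 2.23, adjusted p = 0.00214). Apobec2, a deaminase relative, had 0.371, 0 and 0 CPM in the Ovgp1-BPR tumours and 2.09 to 351 CPM in the others (-10.44 ± 2.26, adjusted p = 0.00168). Cyp21a1, a steroid hydroxylase, had 0.159, 0 and 0.0566 CPM in the Ovgp1-BPR tumours and 11 to 221 CPM in the others (-10.20 ± 2.43, adjusted p = 0.00355). Anxa10, an annexin, had no read in the Ovgp1-BPR tumours and 0.276 to 43.6 CPM in the others. Slc26a4, the anion exchanger pendrin, had none and 0.0537 to 44.2 CPM. Trim58, a ubiquitin ligase of the erythroid lineage, had none and 0.11 to 42.9 CPM. Cfd and Ifi202b belonged to the same set, with Cfd at 0.0569 to 167 CPM in the other tumours and its call lost without any 1 of the Ovgp1-BPR tumours or without the first Ad-BPR library (adjusted p = 0.0614 to 0.554). The Cfd call was also lost with limma on log2(TPM + 1) (adjusted p = 0.0529) and in the edgeR fit of the compared libraries (0.061). In the oviducts Anxa10 was at 0, 0 and 0 CPM, Slc26a4 at 0.721, 0.832 and 2.26 CPM and Trim58 at 0.36, 0.052 and 0.289 CPM.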

How the data were processed

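Total RNA of 32 mouse samples was sequenced, and the authors deposited 1 table of RSEM expected counts and 1 of TPM values per gene (55450 genes). Per the submitters' processing notes, the reads passed through RSEM 1.3.1, STAR 2.7.0f, cutadapt 1.18, bcl2fastq and Picard, with mm10 (GRCm38) as the build. Strand use was not given in the sources used here, so overlapping and antisense genes may share reads, and RSEM divides reads between near-identical copies. Groups came from the titles; replicate numbers follow accession order and only name libraries. No column was left without a sample.

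The deposited expected counts were rounded to whole numbers and tested with edgeR 4.0.16 (R 4.3.3), using TMM scaling, filterByExpr (minimum count 10, minimum total 15) and the quasi-likelihood test in 1 fit of all 32 libraries in 10 groups; the 20887 genes tested held 99.95% of reads. Log2 fold changes are given ± SE, with Benjamini-Hochberg adjusted p and a threshold of 0.05. The SE was derived as the absolute log2 fold change divided by the square root of the F statistic. Where a group lies near 0 reads, the fold change and this SE depend on the prior count. All-zero groups were set to a floor of 3 reads per library for bounds, which cover counting error only. Alternatives were RLE factors, other filters, DESeq2 1.42.0, limma 3.58.1 on log2(TPM + 1) from the deposited TPM values, only the compared libraries, oviduct 2 alone and each library left out. The fit was also run on simulated counts, whose spread was capped and whose groups shared a common mean for most genes. The outcome of that run is not given here, and it cannot vouch for the calls above.

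Named genes were the 12 largest changes per direction (called, 10 CPM, no overlap). Up to 4 called members of each list in its main direction and 2 against it were added. So were the engineered, Rb-pathway and lineage genes and the 12 most variable genes among tumours (50 CPM). The 8 largest differences per direction from the Ad-BPR and Pax8-BPR tumours completed the set. Predicted genes were left out. Other list members named were chosen after their values were seen. The members, the 34 lists and the tests were chosen with earlier results of these data known. Promoters (250 bases) were RefSeq sequences of GRCm38.p6, and gene coordinates are GENCODE on GRCm38. Values of some single list members are not reported here; the list counts include them.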

Additional observations from a re-analysis of the deposited data

Results flagged for a closer look

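The tumour-against-oviduct difference of the Ovgp1-BPR model differed from that of the Ad-BPR and Pax8-BPR models for 5834 genes, by the edgeR test of the difference itself. Groups of 3 are too small for a test of single outlying libraries. Among the engineered, Rb-pathway and lineage genes, log2 differences are given as Ovgp1-BPR over the mean of the other models. They were 2.56 for Trp53, 0.80 for Rb1, 1.55 for Wt1 and 5.44 for Ovgp1. The Ovgp1 value was 2.05 without tumour 1. Rb1 was not called without tumour 3 or the first Ad-BPR library, with no filter or in a fit of the compared libraries, and Wt1 not without the first Ad-BPR library or in that fit (adjusted p = 0.0558 to 0.267 over these settings). Of the named genes, the log2 difference was 10.78 for Nell1, 9.94 for Tll2, 9.58 for Aard, 9.11 for Ctnna2, 8.82 for Cacna2d3, 8.58 for Shisal1, 8.54 for Gmnc and 8.37 for Nr0b2.

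Lower in the Ovgp1-BPR tumours were Apobec2 (-10.44), Cyp21a1 (-10.20) and Krt6a (-10.18). Cfd (-12.43), Ifi202b (-11.32), Trim58 (-11.13), Anxa10 (-10.81) and Slc26a4 (-10.81) had no read in any Ovgp1-BPR tumour, so their fitted values depend on the prior count and are no bound. The Cfd call was lost without any 1 Ovgp1-BPR tumour or the first Ad-BPR library, with limma and with only the compared libraries. By list, 15 of 28 epithelial adhesion genes, 8 of 12 keratins, 13 of 22 collagen and matrix genes and 12 of 19 macrophage genes were lower, beside 13.0% of all genes, and 11 of 17 surface epithelium and mesothelium genes were higher, beside 15.0%. Without tumour 2 or without tumour 3 the lower calls were 5 epithelial genes, 4 keratins and 3 to 4 macrophage genes. Those fits called 1373 of 20848 and 1182 of 20853 of all genes lower. The Trp53 allele, Cre driver and way of induction differ together between the models and cannot be told apart.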

How the results depend on the processing

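The count of genes called against oviduct (6811) stayed within 1.5-fold under every alternative except oviduct 2 alone, which gave 2271 calls and left 26.4% of the higher and 38.9% of the lower calls. The other settings gave 5860 (no filter) to 7637 (limma on log2(TPM + 1)), and leaving out 1 library gave 4609 to 6888, the lowest without tumour 3. The count against the Ad-BPR and Pax8-BPR tumours (5834) moved to 2931 in a fit of the compared libraries alone, and leaving out 1 library gave 3104 to 6299, with 3542 without tumour 2 and 3104 without tumour 3. Of 134 named genes set against oviduct, 63 held their direction and side of the threshold in every alternative and 69 lost the call in at least 1, of which 64 did with oviduct 2 alone. Trp53 gained the call with limma and in the fit of the compared libraries. Limma ended 13 of these calls (Acta1, Aen, Ankrd1, Ccnd3, Col10a1, Igf2bp1, Irx1, Krt14, Lhx1, Mmp13, Pax5, Prss8 and Wnt10a). The fit of the compared libraries ended 7 (Ccn2, Ccng1, Cgn, Fcgr3, Lum, Nr4a1 and Ovgp1). The absence of a filter ended 7 (Ankrd1, Ccn1, Ccnd3, Fcgr3, Nr4a1, Pgr and Sesn1) and DESeq2 3 (Dcpp1, Dcpp2 and Tcl1). RLE factors and a minimum count of 30 each ended only that of Fcgr3. The sole change of sign was Krt18, whose log2 fold change was -0.017 without tumour 1 and up to 0.90 with another library left out. For most of these changes the cause was not tested; oviduct 2 alone leaves 1 oviduct sample, whose spread is taken from the other groups. No paired analysis was possible because tumours and oviducts come from different mice and share no replicate number in the labels. Depth limits genes under the floor of 3 reads, 0.164 CPM in tumours and 0.160 CPM in oviducts.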
